A study of Mus musculus with 7 samples.

Results

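The transcription factors that pattern the sclerotome and the axial cartilage were examined as 9 genes chosen by name, namely Pax1, Pax9, Nkx3-2, Foxc1, Foxc2, Barx1, Barx2, Meox1 and Meox2, among 18089 protein-coding genes that could be placed in both mouse genome builds used. For each gene, peaks of histone marks were taken up to 1 kb from its transcription start site (TSS), in the gene body and within 100 kb of either end of it. Peak lists of 6 of the 7 samples of the series were used, and the input library was not analysed here. Primary chondrocytes, which were released by collagenase from the rib cartilage of newborn mice and used within 2 passages, had 2 replicate H3K27ac libraries and 1 H3K4me2 library. Primary dermal fibroblasts from the dorsal skin of newborn mice, the negative control of the study, had 1 H3K27ac library. A separate pair of rib chondrocyte H3K27ac libraries was made from WT mice and from littermates homozygous for CRISPR deletions of the Sox9 enhancers E160 and E308, written E160Δ/Δ E308Δ/Δ, on C57BL/6J. The labels do not say how many animals went into a library. Active promoters and enhancers carry H3K27ac, an acetylation, while H3K4me2, a methylation, covers these elements whether or not they are acetylated.

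The sclerotome is the ventral part of the somite, and its cells form the vertebrae and the ribs. Sonic hedgehog from the notochord turns on the paired-box genes Pax1 and Pax9 there, which act upstream of the homeobox gene Nkx3-2 (Bapx1), a repressor that promotes early chondrogenesis. The forkhead genes Foxc1 and Foxc2 are needed for somite formation and the axial skeleton, the homeobox genes Meox1 and Meox2 act early in the somite, and Barx1 and Barx2 are homeobox genes known from mesenchyme next to epithelia and from developing cartilage.

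Replication was limited to the 2 chondrocyte H3K27ac libraries, which the study's methods call biological replicates. No test between groups and no p-value is therefore given. A TSS was called marked when any base of a peak was 1 kb or less from the outermost annotated 5′ end of the gene. Replicate 2 carried GRCm38 coordinates, marking 43.1% of all TSSs with GRCm38 positions and 6.24% with mm9 positions, so it was placed by GRCm38 genes and compared with the 5 mm9 lists by gene or by distance from the TSS. Lists held 19458 to 66369 peaks, with H3K4me2 the longest and the fibroblast list the shortest, and gave no read numbers, so the depth is unknown. The rank of a peak is the share of its own list with a score at least as high, so that a low percentage is a strong peak, and scores were not compared between lists. Of 14 chondrocyte marker genes, the 4 chondrocyte H3K27ac lists marked 10 to 13 TSSs and the fibroblast list 1, that of Sox9. The Sox9 TSS was unmarked in replicate 1 and marked in replicate 2, WT and E160Δ/Δ E308Δ/Δ. The fibroblast list marked 4 of 8 dermal fibroblast markers (Twist2, Dpt, Lum and Pdgfra) and had no TSS peak at Col1a1, Col1a2 or Col3a1, all of which were marked in the 4 chondrocyte H3K27ac lists. All 3 blood, 3 endothelial and 3 keratinocyte markers were unmarked in each of the 6 lists. Of 4 muscle markers, 3 were marked by H3K4me2 and 0 in any H3K27ac list, and of 3 osteoblast markers, Sp7 was marked in WT and by H3K4me2.

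Sequences were taken from regions away from every TSS where replicate 1, WT, E160Δ/Δ E308Δ/Δ and H3K4me2 peaks coincided and no fibroblast peak lay. There were 8 such regions, at Pax9, Foxc1, Foxc2, Barx2 and Meox2, and the one with the highest WT score is shown for each gene as 300 bases centred on the WT summit (mm9, plus strand). Replicate 2 was not required. By distance from the TSS it had no peak at the Pax9 and Meox2 regions, nor at a Foxc2 region 86.6 kb downstream that is not shown. Capitals mark the short letters searched on both strands, of which only those at Barx2 occurred in the sequences shown.
Pax9, 28.4 kb upstream, chr12:57764180-57764479, between genes: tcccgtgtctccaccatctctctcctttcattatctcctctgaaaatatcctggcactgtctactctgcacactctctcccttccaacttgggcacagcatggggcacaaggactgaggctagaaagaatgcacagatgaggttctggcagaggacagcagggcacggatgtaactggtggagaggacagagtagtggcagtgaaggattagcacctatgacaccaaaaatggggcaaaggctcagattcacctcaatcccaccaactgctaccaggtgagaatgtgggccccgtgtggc
Foxc1, 14.4 kb downstream, chr13:31912723-31913022, in an intron of Gmds: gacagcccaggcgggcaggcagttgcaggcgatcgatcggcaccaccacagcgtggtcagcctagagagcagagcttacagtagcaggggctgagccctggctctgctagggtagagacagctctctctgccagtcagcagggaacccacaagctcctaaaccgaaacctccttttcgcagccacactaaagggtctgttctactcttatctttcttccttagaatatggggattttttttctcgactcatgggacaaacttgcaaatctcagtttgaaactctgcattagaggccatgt
Foxc2, 9.3 kb downstream, chr8:123649221-123649520, outside annotated exons: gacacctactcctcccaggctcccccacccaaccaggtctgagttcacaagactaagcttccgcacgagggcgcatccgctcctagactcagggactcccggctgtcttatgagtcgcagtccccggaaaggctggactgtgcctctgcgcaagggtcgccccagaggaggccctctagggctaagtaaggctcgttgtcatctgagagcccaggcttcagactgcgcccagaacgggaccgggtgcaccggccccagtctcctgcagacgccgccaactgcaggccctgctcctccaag
Barx2, 97.9 kb upstream, chr9:31818757-31819056, between genes: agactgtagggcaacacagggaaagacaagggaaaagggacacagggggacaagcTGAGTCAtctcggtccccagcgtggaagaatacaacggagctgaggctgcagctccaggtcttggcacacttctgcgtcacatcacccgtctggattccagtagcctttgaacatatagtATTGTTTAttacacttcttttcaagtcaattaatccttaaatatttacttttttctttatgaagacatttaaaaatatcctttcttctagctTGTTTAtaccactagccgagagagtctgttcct
Meox2, 14.6 kb downstream, chr12:37849588-37849887, in an intron of Meox2: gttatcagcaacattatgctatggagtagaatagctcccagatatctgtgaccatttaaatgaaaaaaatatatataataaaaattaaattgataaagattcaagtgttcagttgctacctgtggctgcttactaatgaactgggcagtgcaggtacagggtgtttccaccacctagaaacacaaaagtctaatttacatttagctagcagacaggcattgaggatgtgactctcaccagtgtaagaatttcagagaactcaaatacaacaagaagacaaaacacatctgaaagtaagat

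Of the letters searched, AACAAT is a first core bound by SOX factors and was in 1 of the 8 regions, against 11.7% of all 23468 WT summit windows of the same length away from a TSS. The second SOX core was ACAAAG, with 0 of 8 against 24.8%. The forkhead core TGTTTA was in 1 against 18.1%, and the homeodomain core TAATTA in 0 against 5.62%. The AP-1 site TGANTCA was in 2 against 9.23%. At Barx2, the first SOX core on the minus strand overlapped a forkhead core, and an AP-1 site and a second forkhead core lay in the same window. A match of letters is a description of the sequence and not evidence of binding.

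Promoters of 3 genes are shown for the different patterns they carried, as the 250 bases before the RefSeq TSS on the plus strand of GRCm38.p6 with CpG dinucleotides in capitals. RefSeq promoters were matched for 6 of the 9 genes, and Foxc2, Barx2 and Meox1 are named only.
Foxc1 (H3K27ac in 3 of 4 chondrocyte lists, none in replicate 1 or fibroblasts), chr13:31806396-31806645: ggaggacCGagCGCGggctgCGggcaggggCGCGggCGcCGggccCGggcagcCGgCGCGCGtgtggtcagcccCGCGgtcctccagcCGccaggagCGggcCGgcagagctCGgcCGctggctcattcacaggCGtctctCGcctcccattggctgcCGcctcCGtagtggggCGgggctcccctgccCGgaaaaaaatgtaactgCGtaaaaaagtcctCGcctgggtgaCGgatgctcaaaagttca
Barx1 (no peak of either mark within 1 kb), chr13:48662786-48663035: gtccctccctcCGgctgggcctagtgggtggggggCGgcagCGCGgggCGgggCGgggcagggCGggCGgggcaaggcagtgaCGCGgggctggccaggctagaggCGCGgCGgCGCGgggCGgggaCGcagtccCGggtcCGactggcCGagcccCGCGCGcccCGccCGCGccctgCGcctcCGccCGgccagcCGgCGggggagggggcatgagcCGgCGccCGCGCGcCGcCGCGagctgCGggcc
Meox2 (marked in all 6 lists), chr12:37108290-37108539: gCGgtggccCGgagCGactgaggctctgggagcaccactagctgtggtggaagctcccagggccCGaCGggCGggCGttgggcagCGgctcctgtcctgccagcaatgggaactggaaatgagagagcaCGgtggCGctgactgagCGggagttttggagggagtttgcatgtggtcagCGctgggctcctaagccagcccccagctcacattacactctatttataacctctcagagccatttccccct

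These stretches held 29 CpGs at Foxc1, 40 at Barx1 and 12 at Meox2. Within 500 bp of the outermost TSS in mm9, the ratio of observed to expected CpGs was at least 0.6 at 7 of the 9 genes, against 48.1% of all genes. The ratio was highest at Foxc2 (0.993) and Foxc1 (0.948), above 97.7% and 95.2% of all genes. It was 0.882 at Barx1 and 0.839 at Barx2, 0.682 at Nkx3-2, 0.655 at Pax1 and 0.631 at Pax9. Meox1 (0.416) and Meox2 (0.444) were the lowest, below the median of all genes (0.58). A CpG-rich start was thus found both at Foxc2, with H3K27ac, and at Barx1, without a peak of either mark within 1 kb.

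At the start sites, H3K27ac was found at Foxc2 and Meox2 in all 4 chondrocyte lists, at Foxc1 in 3, at Meox1 in 2 and at Nkx3-2 in 1, and never at Pax1, Pax9, Barx1 or Barx2. It marked 2 of 9 TSSs in replicate 1 (44.2% of all genes), 3 in replicate 2 (43.1% of all genes), 5 in WT (50% of all genes) and 4 in E160Δ/Δ E308Δ/Δ chondrocytes (47.1%). Fibroblasts had 1 of 9, that of Meox2, against 47.5% of all genes. H3K4me2 marked 6 of 9 in chondrocytes, against 66.3% of all genes. Foxc2 was marked in both replicates and not in fibroblasts, a pattern of 1.65% of all genes, and 0 of 9 were marked in fibroblasts and in neither replicate, against 3.76%. Foxc1, Foxc2 and Meox1 were marked in both WT and E160Δ/Δ E308Δ/Δ libraries and not in fibroblasts, 3 of 9 against 3.2% of all genes. The replicates gave the same call at 8 of 9 TSSs, with Foxc1 the exception, against 89.7% over all genes.

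**Figure D1:**
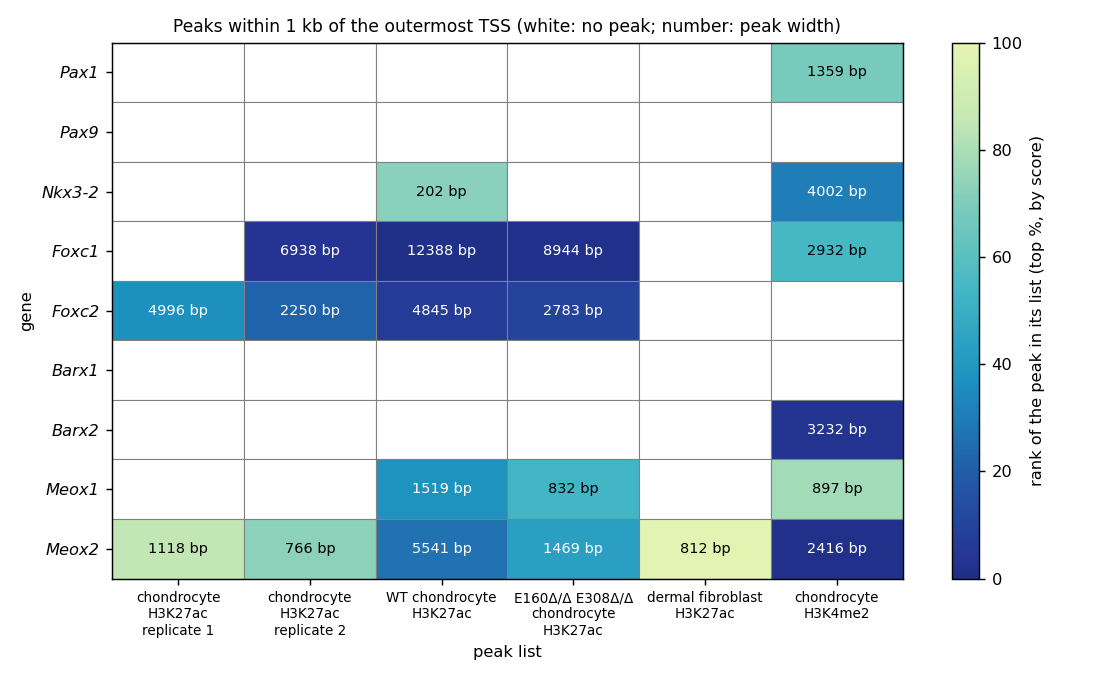
Peaks within 1 kb of the outermost TSS of the 9 genes (rows) in the 6 lists (columns), with the width of the widest such peak in bp and its rank in the list as colour (top % by score, dark for strong). Meox2 was marked in all 6 lists, Foxc2 in the 4 chondrocyte H3K27ac lists, and Pax9 and Barx1 in none.

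H3K4me2 without H3K27ac was the commonest state of these TSSs when replicate 1 was the acetylation list. Pax1, Nkx3-2, Foxc1, Barx2 and Meox1, 5 of 9, had H3K4me2 and no replicate 1 peak, against 22.9% of all genes. Pax1 and Barx2 had H3K4me2 and no H3K27ac in any of the 4 chondrocyte lists, 2 of 9 against 16.0%. The other 3 were acetylated in at least 1 of the other chondrocyte lists. Foxc2 showed the opposite state, with H3K27ac in all 4 chondrocyte lists and the nearest H3K4me2 edge 1.63 kb from the TSS. With a window of 2 kb, H3K4me2 marked all 9 TSSs, so that Foxc2, Barx1 and Pax9 carried it too, and the H3K27ac counts did not change. The share of all genes with H3K4me2 at 2 kb was not computed.

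Pax1, the earliest of the paired-box genes in the sclerotome, had almost no acetylation. The gene lies at chr2:147187661-147219031 (mm9, plus strand). In replicate 1 a single 767 bp peak lay in the gene body, 4.74 kb from the outermost TSS and between inner transcript starts at 3.07 and 6.36 kb, at rank 93.2%. No peak was found within 100 kb in replicate 2, WT, E160Δ/Δ E308Δ/Δ or fibroblasts, whose nearest edges were 347 to 348 kb away. H3K4me2 had 4 peaks there, a 1359 bp peak over the outermost TSS at rank 68.2%, a 1624 bp peak at 3.67 kb, and peaks at 63.3 kb upstream and 93.1 kb downstream. The strongest of them was the last, at rank 27.6%.

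Pax9, the partner of Pax1 in the sclerotome, was acetylated at distal sites in chondrocytes and at none in fibroblasts. It lies at chr12:57792754-57813809 (mm9, plus strand). Within 100 kb there were 2 H3K27ac peaks in replicate 1, 0 in replicate 2, 6 in WT, 5 in E160Δ/Δ E308Δ/Δ and 0 in fibroblasts, with 9 H3K4me2 peaks. Replicates 1 and 2 therefore differed at this gene. The region 28.4 kb upstream held a replicate 1 peak of 744 bp at rank 47.3%, a WT peak of 529 bp at rank 35.4% and an E160Δ/Δ E308Δ/Δ peak of 498 bp at rank 42.0%. Replicate 2 had no peak within 346 kb of the TSS. The H3K4me2 list had no peak within 1 kb of the outermost TSS, but a 3973 bp peak at rank 8.08% covered the inner transcript starts 3.87 and 3.96 kb away. A WT H3K27ac peak of 280 bp at rank 93.7% lay within 1 kb of the same inner starts, and no other H3K27ac list had one. The strongest H3K4me2 peak of the window was 54.7 kb upstream, at rank 2.75%, and had no H3K27ac peak in any list. With any transcript start counted, Pax9 was thus marked in WT and H3K4me2, and the calls of the other genes did not change.

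Nkx3-2 had H3K4me2 over its start and little acetylation of its own. It lies at chr5:42152404-42155735 (mm9, minus strand). The H3K4me2 peak at the TSS was 4002 bp wide at rank 30.7%. Of the H3K27ac lists, WT alone had a TSS peak, 202 bp wide at rank 72.4%, and the nearest edges in the other 4 were 55.7 to 56.0 kb away. Counts within 100 kb were 4 in replicate 1, 3 in replicate 2, 3 in WT, 2 in E160Δ/Δ E308Δ/Δ and 3 in fibroblasts. Most of these were the promoters of the neighbours Rab28, at 56.3 kb, and Bod1l, at 79.7 kb on the other side, which were marked in all 5 mm9 lists. Replicate 1 peaks at 69.7 kb (rank 73.9%) and 99.9 kb (rank 36.8%) had H3K4me2 beneath them, lay on no TSS and had no fibroblast partner, and neither had a WT peak.

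Foxc1 carried the widest acetylated domain of the 9 genes, in 3 of the 4 chondrocyte H3K27ac lists. It lies at chr13:31898515-31902504 (mm9, plus strand), a single-exon gene. The peak over its TSS was 6938 bp in replicate 2 (rank 3.57%), 12388 bp in WT (rank 0.369%) and 8944 bp in E160Δ/Δ E308Δ/Δ (rank 0.94%). The fold enrichment over background that the authors' caller gave was 52.0 in WT, 37.1 in E160Δ/Δ E308Δ/Δ and 19.4 in replicate 2, and the lists of replicate 1, fibroblasts and H3K4me2 gave none. The WT peak, at chr13:31896394-31908781, was the 19th widest of 33369. Replicate 1 had no peak there, its nearest edge being 12.2 kb away, and the nearest fibroblast edge was 532 kb away. H3K4me2 flanked the TSS, with a 2932 bp peak centred 1.62 kb upstream and a 6525 bp peak 7.74 kb downstream, and together its peaks covered 62.6% of the WT domain.

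The absence of Foxc1 from replicate 1 and fibroblasts went along with a general difference between lists in wide domains. Over the 80 WT peaks of at least 8000 bp, replicate 1 covered 28.8% of the bases and had no peak at 28 (35%), fibroblasts covered 21.7% and had no peak at 31 (38.8%), H3K4me2 covered 21.3% and had no peak at 38 (47.5%), and the E160Δ/Δ E308Δ/Δ list covered 91.8% and had a peak at each. Of the 4206 WT peaks between 2000 and 5000 bp, 9.44% had no peak in replicate 1, 20.9% in fibroblasts, 7.04% in H3K4me2 and 0.0951% in E160Δ/Δ E308Δ/Δ. The widest peaks were 8512, 8239 and 8382 bp in replicate 1, fibroblasts and H3K4me2. They were 46443, 29892 and 20786 bp in replicate 2, WT and E160Δ/Δ E308Δ/Δ. Like Foxc1, the cartilage collagen genes Col2a1 and Col11a1 of the marker list were marked in replicate 2, WT and E160Δ/Δ E308Δ/Δ and not in replicate 1 or fibroblasts. The same calls were found at Prrx1, from the dermal fibroblast markers, and at Sox6, from the somite list. The other cartilage collagen genes listed, Col9a1, Col9a2, Col9a3 and Col11a2, were marked in replicate 1 as well. The lists of replicate 1, fibroblasts and H3K4me2 had a peak-file layout without fold enrichment, and those of replicate 2, WT and E160Δ/Δ E308Δ/Δ had the layout with it, so the layout and the cell type cannot be told apart between fibroblasts and the latter 3. Within the first layout, replicate 1 and fibroblasts alike had no Foxc1 TSS peak, and at Foxc2 replicate 1 had one and fibroblasts did not. The part of the layout in these results was not tested. The fibroblast list also lacked the narrower peaks around Foxc1, with 0 peaks within 100 kb.

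Beside the TSS, a second Foxc1 region about 14 kb downstream, whose summit sequence is given above, was shared by all chondrocyte lists. It held 2973 bp in replicate 1 (rank 35.6%), 832 bp in replicate 2 (rank 42.9%), 4546 bp in WT (rank 13.8%), 4025 bp in E160Δ/Δ E308Δ/Δ (rank 11.6%) and 5336 bp of H3K4me2 (rank 65.9%). A region 41.2 kb upstream was the strongest replicate 1 peak of the window (2485 bp, rank 9.33%). WT had it at rank 50.5%, and replicate 2 and E160Δ/Δ E308Δ/Δ did not have it. Window counts were 4, 4, 6, 6 and 0 in replicate 1, replicate 2, WT, E160Δ/Δ E308Δ/Δ and fibroblasts, with 12 H3K4me2 peaks.

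Foxc2 was the gene acetylated in every chondrocyte H3K27ac list and not in fibroblasts. It lies at chr8:123640071-123642792 (mm9, plus strand), also in a single exon. The TSS peak was 4996 bp in replicate 1 (rank 36.4%), 2250 bp in replicate 2 (rank 21.9%), 4845 bp in WT (rank 6.57%) and 2783 bp in E160Δ/Δ E308Δ/Δ (rank 9.8%). Fold enrichment was 10.9, 33.4 and 22.1 in the last 3. In fibroblasts the nearest edge was 7.6 kb away, at the promoter of Mthfsd, a neighbour whose TSS is 7.78 kb upstream and which was marked in all 5 mm9 lists. The other fibroblast peak of the window lay at Foxf1a, 31.8 kb upstream. The gap in H3K4me2 covered the first 1.63 kb of the gene, and a 4382 bp H3K4me2 peak was centred 3.82 kb downstream.

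Downstream of Foxc2, the chondrocyte lists shared distal sites that fibroblasts did not have. Near 9 kb, H3K27ac peaks of 468 bp in replicate 1, 236 bp in replicate 2, 1071 bp in WT and 943 bp in E160Δ/Δ E308Δ/Δ lay on an H3K4me2 peak of 2211 bp, before Foxl1, which RefSeq places 11.5 kb from the Foxc2 TSS. Near 71.5 kb the peaks were 1040, 549, 959 and 734 bp in the same order, and near 87.5 kb they were 788, 542, 647 and 197 bp. Window counts were 7, 9, 7, 10 and 2 in replicate 1, replicate 2, WT, E160Δ/Δ E308Δ/Δ and fibroblasts, with 18 H3K4me2 peaks. Each of the 7 WT peaks had an E160Δ/Δ E308Δ/Δ partner. By distance from the TSS, all 9 replicate 2 peaks overlapped a WT peak, 6 a replicate 1 peak and 3 a fibroblast peak.

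**Figure D2:**
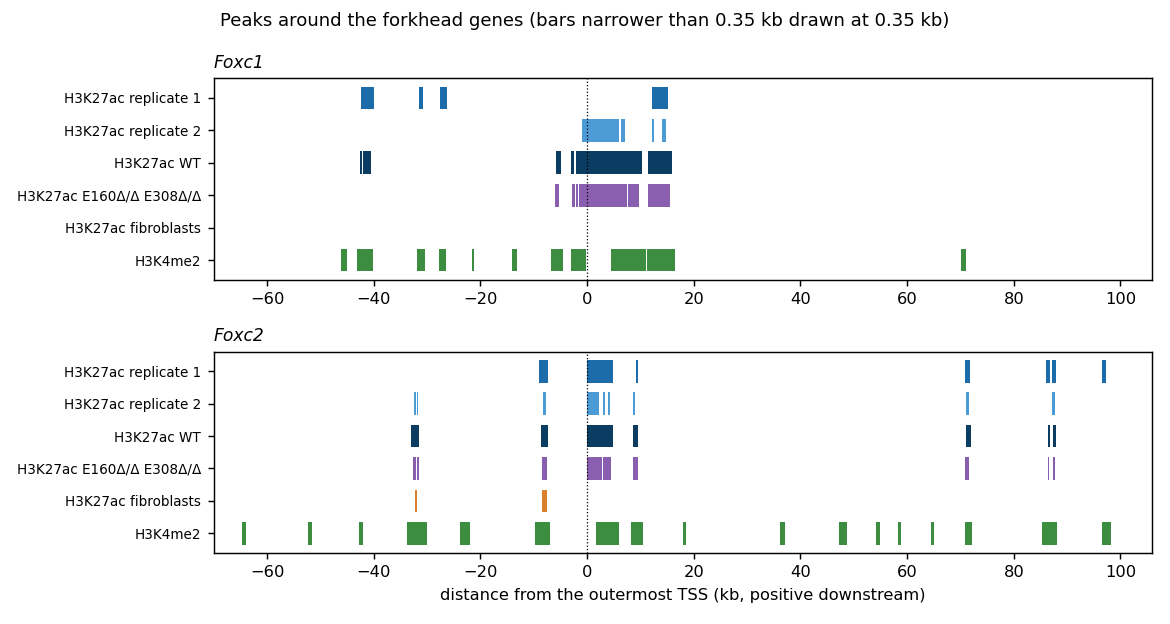
Peaks around Foxc1 and Foxc2 by distance from the TSS in kb (x axis, positive downstream), with 1 row of bars for each of the 6 lists and bars narrower than 0.35 kb drawn at 0.35 kb. The Foxc1 domain was present in replicate 2, WT and E160Δ/Δ E308Δ/Δ, and the 2 fibroblast peaks in the Foxc2 window were upstream of the gene.

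Barx1, a homeobox gene best known from stomach and tooth mesenchyme, had no TSS peak in any list. It lies at chr13:48758367-48761876 (mm9, plus strand). Each H3K27ac list had the same 2 peaks within 100 kb, 1 at the promoter of Ptpdc1, 37.3 kb upstream, and 1 about 96.5 kb upstream, so the fibroblast and chondrocyte lists did not differ here. The far peak was strong in replicate 1 (rank 1.09%) and had ranks of 14.7 to 20.9% in the other 4. H3K4me2 had 11 peaks, of which 9 overlapped no H3K27ac in replicate 1, WT or E160Δ/Δ E308Δ/Δ. They included peaks 3.74 kb upstream (1797 bp, rank 30%) and 2.59 kb downstream (2244 bp, rank 86.4%), whose nearest edge was 1.47 kb from the TSS.

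Barx2, which is expressed in developing muscle and cartilage, had strong H3K4me2 and no acetylation at its start. It lies at chr9:31653682-31721047 (mm9, minus strand). Its H3K4me2 TSS peak was 3232 bp wide at rank 2.65%, with only Meox2 stronger among the 9 TSSs in that list. No H3K27ac list had a peak in the gene body. A site 98.0 kb upstream had peaks of 1106 bp in replicate 1, 235 bp in replicate 2, 509 bp in WT and 252 bp in E160Δ/Δ E308Δ/Δ, at ranks of 33.4, 86.4, 77.5 and 84.4%, and the nearest fibroblast edge was 119 kb from the TSS. H3K4me2 had 12 peaks in the window, of which 9 were without H3K27ac in replicate 1, WT and E160Δ/Δ E308Δ/Δ.

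Meox1 was acetylated at its TSS only in the WT and E160Δ/Δ E308Δ/Δ pair. It lies at chr11:101738824-101755688 (mm9, minus strand). The TSS peak was 1519 bp in WT (rank 37.2%) and 832 bp in E160Δ/Δ E308Δ/Δ (rank 53.7%), with fold enrichments of 10.2 and 6.79, and an H3K4me2 peak of 897 bp (rank 78.3%) lay at the same place. The nearest edges were 50.8 kb away in replicate 1, 12.7 kb in replicate 2 and 12.2 kb in fibroblasts. The window held 5 peaks in replicate 1, 6 in replicate 2, 27 in WT, 14 in E160Δ/Δ E308Δ/Δ, 6 in fibroblasts and 19 of H3K4me2. WT thus stood apart from both replicates, and Meox1 alone gave 27 of the 55 WT peaks at the 9 genes. Sites at about 52, 64 and 87 kb downstream and 90 kb upstream were common to all 5 H3K27ac lists, so each of the 5 replicate 1 peaks had a fibroblast partner. The strongest site was at 64.1 kb in WT (2143 bp, rank 11.5%) and the WT peak of 2108 bp at 70.8 kb (rank 19.2%) had a partner in E160Δ/Δ E308Δ/Δ and none in either replicate, in fibroblasts or in H3K4me2. Fibroblast peaks 37.9 and 12.5 kb downstream had no replicate 1 partner, and both were present in WT. Of the 4 neighbours within the window, Etv4 was marked in WT and H3K4me2, and Sost, Dusp3 and 1700006E09Rik were marked in none of the mm9 lists.

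Meox2 was the gene marked in all 6 lists. It lies at chr12:37835127-37908372 (mm9, plus strand). The TSS peak was 1118 bp in replicate 1 (rank 85.2%), 766 bp in replicate 2 (rank 73.1%), 5541 bp in WT (rank 26.5%), 1469 bp in E160Δ/Δ E308Δ/Δ (rank 43.1%), 812 bp in fibroblasts (rank 99.1%) and 2416 bp of H3K4me2 (rank 0.898%). Fold enrichment was 14.4 in WT, 8.31 in E160Δ/Δ E308Δ/Δ and 3.79 in replicate 2. The fibroblast peak was thus among the weakest of its list, and the H3K4me2 peak among the strongest of its own. A site in the gene body about 15 kb from the TSS had peaks in replicate 1 (1122 bp, rank 40.8%), WT (1908 bp, rank 43.2%), E160Δ/Δ E308Δ/Δ (266 and 216 bp) and H3K4me2 (1156 bp, rank 35.8%), and none in replicate 2 or fibroblasts. Of 11 H3K4me2 peaks, 9 were without H3K27ac in replicate 1, WT and E160Δ/Δ E308Δ/Δ.

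**Figure D3:**
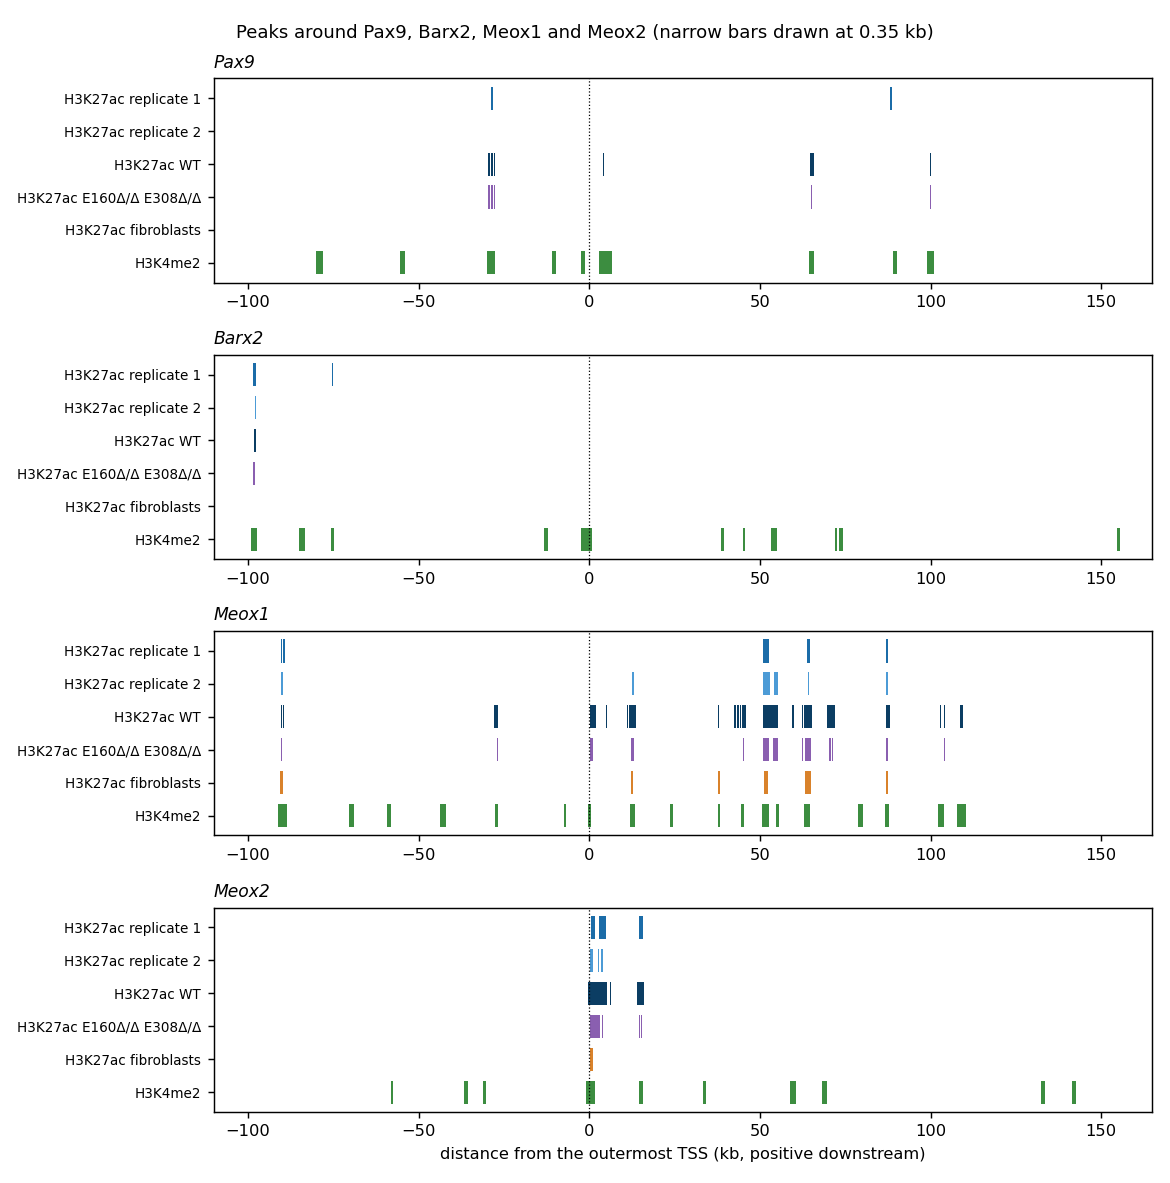
Peaks around Pax9, Barx2, Meox1 and Meox2 by distance from the outermost TSS in kb (x axis, positive downstream), with 1 row of bars for each of the 6 lists and bars narrower than 0.35 kb drawn at 0.35 kb. Fibroblast peaks were 0 at Pax9 and Barx2, 6 at Meox1 and 1 at Meox2.

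Summed over the 9 windows there were 30 peaks in replicate 1, 28 in replicate 2, 55 in WT, 45 in E160Δ/Δ E308Δ/Δ, 14 in fibroblasts and 105 of H3K4me2. The median gene had 3, 3, 3, 5, 1 and 11 peaks in that order, and the median over all genes was 4, 3, 5, 4, 3 and 10. The median was thus below that of all genes in replicate 1, WT and fibroblasts. In fibroblasts 4 of 9 genes (Pax1, Pax9, Foxc1 and Barx2) had no peak within 100 kb, against 18.2% of all genes. Both replicates had more peaks than fibroblasts at Foxc1, Foxc2, Barx2 and Meox2, 4 of 9 against 26.0% of all genes, and 0 of 9 had fewer in both replicates, against 15.8%. A gene-body peak was present at 3, 4, 6, 4, 2 and 8 of the 9 genes, against 49.7, 48.4, 55.2, 51.2, 52.5 and 73.2% of all genes. These genes are isolated, with a median distance of 78.5 kb to the nearest other TSS against 22.4 kb over all genes, and a median of 1 TSS of another gene in the window, against 4 over all genes. Of the 14 fibroblast peaks, 6 lay at the TSS of another gene, 1 at a member's own TSS, 1 in a gene body and 6 elsewhere.

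**Figure D4:**
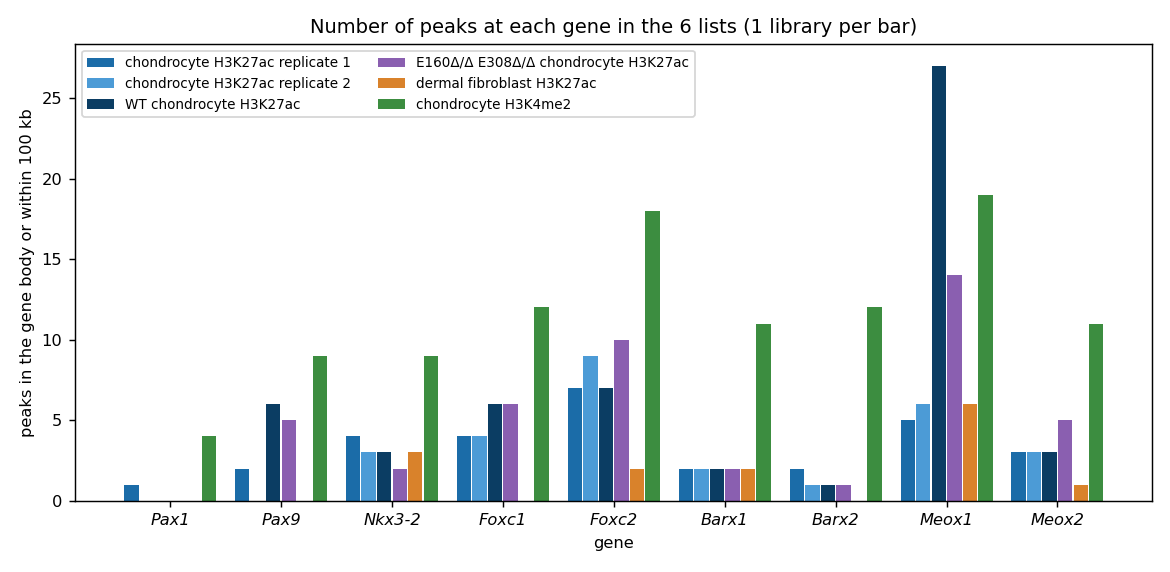
Number of peaks (y axis) in the gene body or within 100 kb of each of the 9 genes (x axis) in the 6 lists, with 1 library per bar and therefore no error. H3K4me2 was the longest list and had the most peaks at 8 genes, and WT had 27 peaks at Meox1 against 5 and 6 in the replicates.

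Compared by position with fibroblasts, 19 of 30 replicate 1 peaks had no fibroblast peak (63.3%, exact Clopper-Pearson 95% interval 43.9 to 80.1%), against 48.3% of all replicate 1 peaks. The intervals assume independent peaks and express counting error alone. Away from every TSS, the share was 18 of 24 (75%), against 70.7%. The genes were not alike. Pax1, Pax9, Foxc1 and Barx2 had no fibroblast peak in the window, so all 9 replicate 1 peaks there were without one by that count alone. At Foxc2 6 of 7 were without a fibroblast peak, and 0 of 2 at Barx1 and 0 of 5 at Meox1. With WT, 41 of 55 peaks had no fibroblast peak (74.5%, 61.0 to 85.3%), against 56.4% of all WT peaks, and away from every TSS 36 of 44 (81.8%, 67.3 to 91.8%), against 74.6%. The share over all peaks lay below the interval in the WT comparison of all sites and within it in the other 3. In the other direction, 3 of 14 fibroblast peaks had no replicate 1 peak (21.4%, 4.66 to 50.8%), against 37.6%. None of the 14 was without a WT peak, against 26.2% of all fibroblast peaks.

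Of the 30 replicate 1 peaks, 28 lay on H3K4me2 (93.3%, 77.9 to 99.2%), against 90.2% of all replicate 1 peaks, the exceptions being 1 at Pax9 and 1 at Meox2. H3K4me2 had the most peaks, as the longest list, but when every list was reduced to its 19454 strongest peaks it had 24 window peaks, against 22 in replicate 1 and 35 in WT, and the share of replicate 1 peaks on H3K4me2 was 31.8%. The share over all replicate 1 peaks was not computed at that length. The fall from 93.3% therefore cannot be read as particular to these genes. Without replicate 1 H3K27ac were 75 of 105 H3K4me2 peaks (71.4%, 61.8 to 79.8%), against 64.8%, and away from every TSS 64 of 87 (73.6%), against 74.2%. Without H3K27ac in replicate 1, WT and E160Δ/Δ E308Δ/Δ were 58 of 105 (55.2%, 45.2 to 65.0%), against 54.0%. This share ran from 2 of 9 at Nkx3-2 and 4 of 12 at Foxc1 to 9 of 11 at both Barx1 and Meox2. The shares of H3K4me2 over the 9 genes were thus close to those of the whole list, with the all-peak share inside each interval given.

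Peaks found in WT and absent from E160Δ/Δ E308Δ/Δ chondrocytes were mostly at Meox1. Without an E160Δ/Δ E308Δ/Δ peak were 19 of 55 WT peaks (34.5%, 22.2 to 48.6%), against 37.2% of all WT peaks. Of these 19, 14 were at Meox1, and the other 8 genes, separated after their values were seen, had 5 of 28 (17.9%, 6.06 to 36.9%). The absent peaks were the weak ones, with 0 of 11 in the top 25% of the WT list by score, 2 of 18 from there to the top 50%, 4 of 10 to the top 75% and 13 of 16 in the rest, against 0.012, 4.15, 52.5 and 88.5% over all WT peaks. All 45 E160Δ/Δ E308Δ/Δ peaks had a WT partner (0 of 45 without, upper limit 7.87%), and of all E160Δ/Δ E308Δ/Δ peaks 1.12% had none. The Nkx3-2 TSS, with its 202 bp peak, was the 1 TSS of the 9 marked in WT and not in E160Δ/Δ E308Δ/Δ. By distance from the TSS, 28 of 28 replicate 2 peaks overlapped a WT peak, 27 an E160Δ/Δ E308Δ/Δ peak, 26 an H3K4me2 peak, 21 a replicate 1 peak and 14 a fibroblast peak. Over the windows of all genes, with a peak counted once for each gene, the shares were 82.8%, 76%, 79.3%, 70.3% and 59.3% in that order. This matching can miss partners where the outermost TSS differs between the annotations, and how often it does was not tested.

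**Figure D5:**
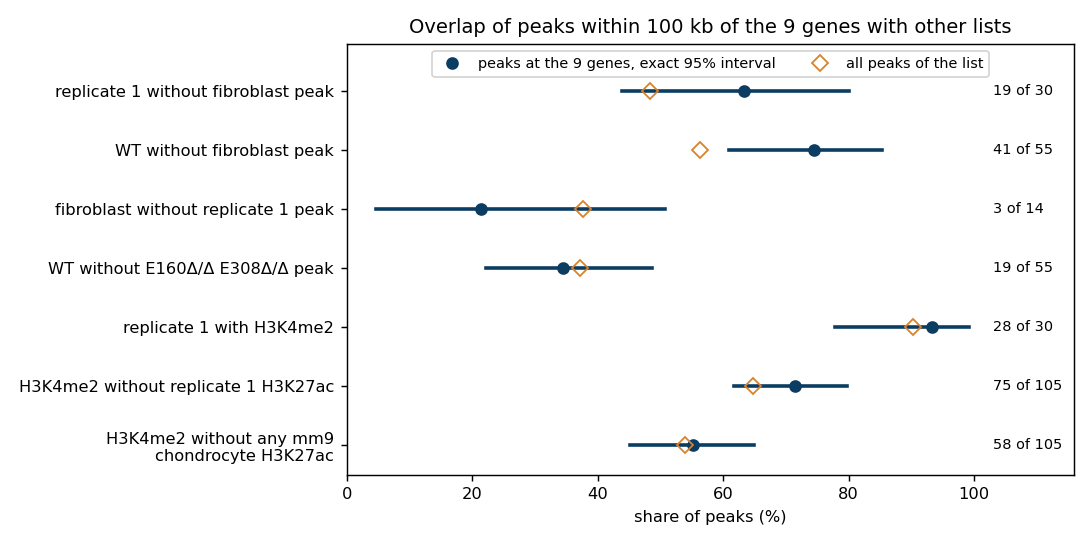
Share of peaks within 100 kb of the 9 genes with or without a partner in another list (filled points with exact Clopper-Pearson 95% intervals, counts at the right) and the same share over all peaks of the list (open diamonds), in percent. The all-peak share lay outside the interval in the comparison of WT with fibroblasts (74.5% against 56.4%) and inside it in the other 6.

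Other regulators of the somite and sclerotome, fixed as a list, were more often marked by H3K4me2 than by H3K27ac, as the longer list would also give. Of 28 listed genes 27 were found in both builds, and their TSSs were marked in 6, 9, 13, 9, 7 and 19 cases in replicate 1, replicate 2, WT, E160Δ/Δ E308Δ/Δ, fibroblasts and H3K4me2. Eya1, Scx and Twist1 were marked in both replicates and not in fibroblasts, 3 of 27 against 1.65% of all genes. Tbx18 and Sim1 were marked in fibroblasts and in neither replicate, 2 of 27 against 3.76%. The Tbx18 TSS was also marked in WT chondrocytes, and both had chondrocyte H3K4me2. Scx, a tendon regulator, and Twist1, a repressor of differentiation in mesenchyme, were also marked in WT and E160Δ/Δ E308Δ/Δ, as was Eya1, a transcriptional coactivator. Of the 27, 10 had H3K4me2 and no H3K27ac in any chondrocyte list, against 16.0% of all genes. They included Pax3, Pax7 and Myf5, genes of the dermomyotome and of muscle, and also Sim1. Of 16 paralogs of the 9 genes found, 14 were marked by H3K4me2, against 66.3% of all genes. Of the 16, 11 had H3K4me2 and no H3K27ac in any chondrocyte list, against 16.0% of all genes. Each H3K27ac list marked 1 to 3 of the 16, against 43.1 to 50% of all genes.

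By the pattern of TSS marks over the 6 lists, Foxc2 was shared with 21 of the 18089 genes (0.116%), Foxc1 with 73 (0.404%), Meox1 with 118 (0.652%) and Nkx3-2 with 161 (0.89%). Within these, the closest genes by the summed difference in window counts over the 6 lists were Cdkn1a for Foxc2 (difference of 11 peaks), Adamtsl1 for Meox1 (17) and Ccno for Nkx3-2 (3). Pax1 and Barx2 shared a pattern with 2616 genes (14.5%), Pax9 and Barx1 with 5663 (31.3%) and Meox2 with 6526 (36.1%). These patterns are of presence or absence at 1 threshold in 6 libraries and carry no error.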

How the data were processed

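The authors trimmed reads with fastp, aligned them with Bowtie2 (version 2.4.4) and called peaks with MACS2 (version 2.2.4) against input reads, and the submitters' processing notes name mm9. Replicate 1, fibroblast and H3K4me2 files hold a deposited peak score of at least 50, in the column layout of an earlier MACS release. The replicate 2, WT and E160Δ/Δ E308Δ/Δ files hold a score, the authors' fold enrichment, a −log10 p-value and a −log10 q-value. Each sample had its own list. Genes and the 9 members were placed with the mm9 annotation, or for replicate 2 with RefSeq GRCm38 records. A TSS was marked when a peak came within 1 kb, peaks in 2 mm9 lists were partners when they shared at least 1 base, and replicate 2 was matched by distance from the TSS. Shares carry exact binomial (Clopper-Pearson) 95% intervals. Every member is named, other genes only from fixed lists, as neighbours, or by the likeness rule (same TSS pattern, smallest summed difference in peak counts). Members and lists were chosen with earlier results of these data known. Scripts ran under Python 3.11.15 with pandas 2.3.3 and numpy 2.4.6, intervals came from scipy 1.17.1 and plots from matplotlib 3.10.9. They were tested on simulated data. Alternatives were the TSS window, any transcript start, the flank, the strongest peaks, equal list lengths, 50% reciprocal overlap, merging of close peaks, WT in place of the replicates and leaving out each replicate. Chosen after seeing the data were the genes without Meox1 and, for the TSS comparisons of cell types and of replicates, any transcript start. Read numbers are not in the lists, so the depth per sample is unknown, and the input library was not analysed here.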

Additional observations from a re-analysis of the deposited data

How the results depend on the processing

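Of 122 recomputed values, 86 kept within their interval or within 1.5 times the count and 36 moved. With only the stronger 50% of each list, marked TSSs among the 9 were 1 in replicate 1, 0 in fibroblasts and 3 for H3K4me2, and window peaks were 18, 11, 32, 17, 8 and 56 in replicate 1, replicate 2, WT, E160Δ/Δ E308Δ/Δ, fibroblasts and H3K4me2. With every list cut to its strongest 19454 peaks, marked TSSs were 1 in replicate 1 and 2 for H3K4me2, and window peaks 35 in WT and 24 for H3K4me2. A TSS window of 500 bp gave 1 in replicate 1, and one of 2 kb gave 9 for H3K4me2 in place of 6. Flanks of 50 kb gave 15 window peaks in replicate 1, 8 in fibroblasts and 66 of H3K4me2, and flanks of 250 kb gave 66, 46, 92, 75, 29 and 215. Merging peaks under 1 kb apart gave 36 in WT, and leaving out peaks at the TSS of another gene gave 8 in fibroblasts. The share of replicate 1 peaks with H3K4me2 was 72.2% in the stronger 50%, 31.8% at equal list lengths and 60.0% at 50% reciprocal overlap, at which H3K4me2 peaks without replicate 1 H3K27ac came to 82.9%. The share of WT peaks without an E160Δ/Δ E308Δ/Δ peak was 50%, 20% and 49.1% under the same 3 settings, and 17.9% without Meox1, a choice made after seeing the data. TSSs marked in chondrocytes and not in fibroblasts were 1 to 2 on leaving out each replicate, Foxc1 joining Foxc2 without replicate 1, and 4 with WT in place of the replicates, under which 0% of fibroblast peaks were without a chondrocyte peak. The causes were not tested. Apart from the fibroblast peaks without a WT peak, matching values over all genes or all peaks were not computed for these settings. The moves therefore cannot be read as particular to the 9 genes. Counting any transcript start left the calls of replicate 1, replicate 2 and fibroblasts at the 9 TSSs unchanged. The comparisons of cell types and of replicates by these calls, added after seeing the data, did not change either. No paired analysis was possible because no result comes from a test, and the WT and E160Δ/Δ E308Δ/Δ littermates form 1 pair of libraries. A missing peak may reflect low depth, which is unknown here.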
